A study of Danio rerio with 35 samples.

Results

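The telencephalon of old zebrafish that lack functional granulin genes was compared with that of old wildtype zebrafish. RNA of whole telencephali was sequenced from 5 old wildtype animals (grna+/+;grnb+/+) and 5 old mutant animals (grna-/-;grnb-/-), all 18 months of age, and these 10 libraries of the 35 in the series were taken by their labels. Of the 24030 genes in the table, 19877 had a mean of at least 5 normalised counts over the 20 telencephalon libraries and were tested. The mutant alleles carry small deletions, in grnb with an insertion, that shift the reading frame and create a premature stop codon, so both transcripts can still be made and counted. The mutation is present in every cell from fertilisation, and wildtype and mutant fish were described as siblings, although the sources used here do not give the family, tank, sex and dissection day of each fish. Telencephali of wildtype and mutant fish 5 months of age, 5 libraries each, served as the young comparison.

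Progranulin is a secreted glycoprotein that is taken up by cells, delivered to the lysosome and cut into granulin peptides. In the mammalian brain it is made mainly by microglia and neurons, and loss of both copies in humans causes a lysosomal storage disease. Zebrafish carry a pair of full-length progranulin genes, grna and grnb, and the short granulin genes grn1 and grn2. The zebrafish telencephalon keeps radial glia-like stem cells, called ependymoglia, along its ventricle throughout life and adds neurons in the adult. The comparison asks which transcripts differ by granulin genotype once the animals are old. In whole tissue, fewer cells of a type and less RNA per cell cannot be told apart.

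The sum of recovered gene counts was 17.6 to 25.8 M reads in the old wildtype libraries and 19.7 to 25.3 M reads in the old mutant libraries. Neuronal, glial and myelin genes were abundant in all 10. The synaptic gene SNAP25 stood at 53898 to 56166 in wildtype and 49008 to 60556 in mutant telencephali, the glutamine synthetase gene glula at 65113 to 72890.3 in wildtype and 57371 to 63917 in mutant, the microglial lipid carrier apoeb at 6591 to 13952 in wildtype and 4203 to 8327 in mutant and the myelin gene mbpa at 6855 to 17454 in wildtype and 5699 to 16532 in mutant (normalised counts).

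The 10 libraries did not form 2 compact groups. On the first principal component, which held 32.2% of the variance, old mutants 3, 4 and 5 lay apart at -90.4 to -51.6, whereas old mutants 1 and 2, at 30.7 and 29.3, lay near wildtype libraries 2 to 5, at 34.1 to 44.4. Mutants 1 and 2 were set apart on the third component. Old wildtype 1 lay at -26.9 on the first component, on the side of mutants 3, 4 and 5. It stood away from the other wildtype libraries on the second component as well. It also shared with old mutant 4 a pineal signal: the median over 37 genes of the pineal organ, a photoreceptor-bearing gland attached to the forebrain roof, was 751 and 728 normalised counts in these libraries and 2.92 to 16.9 in the other 8. No pineal gene was called. Wildtype library 1 and mutants 3, 4 and 5 shared a further property. Over 27 immediate early genes, which are switched on within minutes by neuronal activity and by handling, the median level relative to the wildtype mean was 1.68 in wildtype 1 and 1.16, 1.44 and 1.42 in mutants 3, 4 and 5 on the log2 scale. It was -0.90 and -0.77 in mutants 1 and 2 and -0.57 to -0.08 in wildtype 2 to 5.

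**Figure D1:**
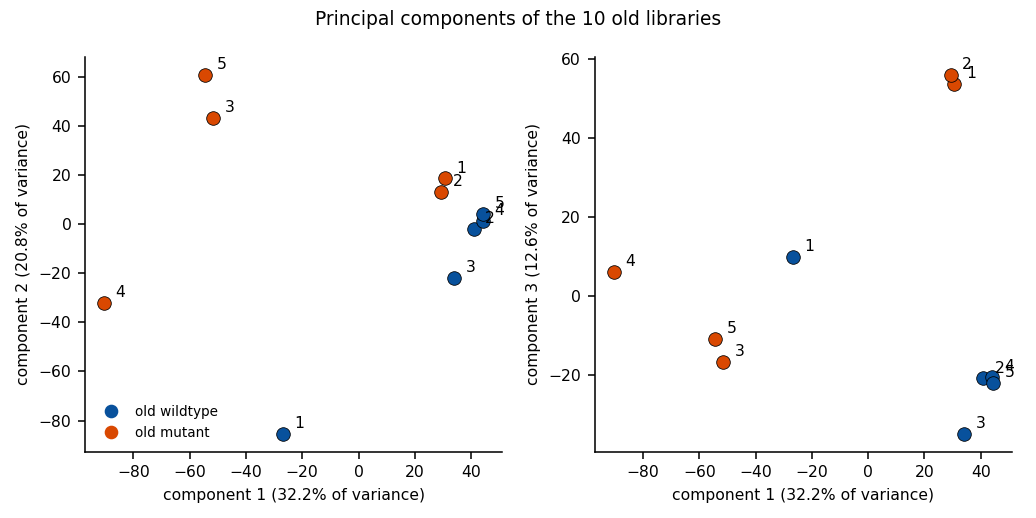
Principal components of log2(normalised count + 1) in the 10 old libraries, each point a library with its number, blue for wildtype and orange for mutant, axes in component scores. On component 1 mutants 3, 4 and 5 lie between -90.4 and -51.6, mutants 1 and 2 at 30.7 and 29.3, and wildtype 1 lies apart from wildtype 2 to 5.

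The targeted genes were measured first. Values in lists of 5 are normalised counts of libraries 1 to 5 in order, and differences are log2 fold changes of mutant against wildtype on the log2(normalised count + 1) scale, with limma's standard error and its Benjamini-Hochberg adjusted p over all 19877 genes. Called genes, here also termed higher or lower, had an adjusted p no greater than 0.05 and differed by no less than 1 on the log2 scale in either direction. The grna transcript (ENSDARG00000004954) was at 809.5, 668, 844, 752 and 2153 in old wildtype and at 418, 229, 494, 275 and 252 in old mutant telencephali. The groups did not overlap, with wildtype 5 far above the other wildtype libraries (log2 fold change -1.56, SE 0.30, adjusted p = 0.00287; -1.26 without wildtype 5). The grnb transcript (ENSDARG00000025081) was at 80.1, 118, 57.2, 86.2 and 106 in wildtype and 21.3, 21.1, 15.8, 15.9 and 4.87 in mutant telencephali, again without overlap (log2 fold change -2.53, SE 0.31, adjusted p = 5.99e-05). For grna and grnb the two-sided exact permutation test gave p = 0.00794, the smallest possible with 5 against 5 libraries, and 0.0159 after adjustment over 4 genes. Both genes stayed called whichever library was left out.

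The short granulins were low and did not separate the groups. The grn1 transcript (ENSDARG00000089362) was at 3.43, 9.83, 23.4, 3.41 and 49.6 in wildtype and 8.20, 0, 13.2, 23.4 and 9.75 in mutant telencephali (log2 fold change -0.59, SE 0.88, adjusted p = 0.705; exact permutation p = 0.619). For grn2 (ENSDARG00000088641) the values were 9.16, 3.93, 16.1, 5.98 and 9.23 against 9.85, 9.50, 3.52, 4.19 and 1.95 (log2 fold change -0.59, SE 0.67, adjusted p = 0.597; exact permutation p = 0.254). At these counts a moderate difference was not detectable. In the young telencephalon, grnb was at 408 to 905 in wildtype and 12.7 to 20.3 in mutants, so the mutant level was alike at both ages while the old wildtype level lay below the young one. The effect of the genotype on grnb was therefore smaller in old than in young fish (difference of the log2 fold changes 2.78, adjusted p = 0.00037). Young grna overlapped between the groups, at 397 to 882 in wildtype and 281 to 582 in mutants, and was not called (-0.51, adjusted p = 0.23). Young grn1 was called lower in mutants, at 6.37 to 11.2 against 8.69 to 258 in wildtype (-2.43, adjusted p = 0.0482). For grna and grn1 the difference between the ages was not called (adjusted p = 0.105 and 0.342).

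**Figure D2:**
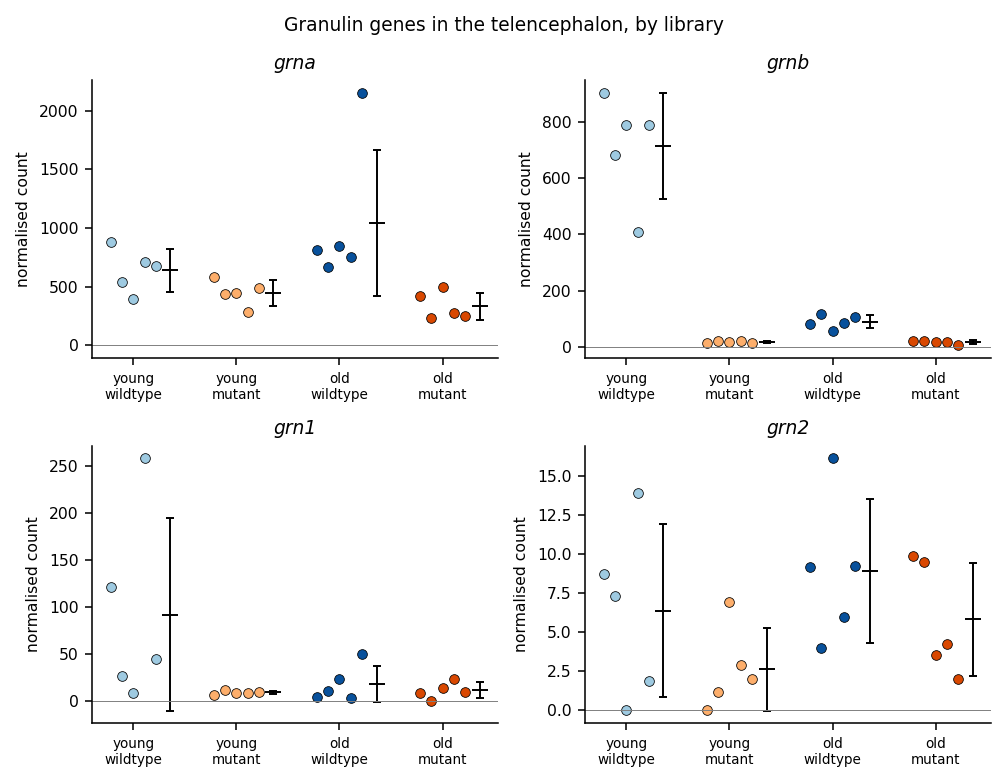
Normalised counts of grna, grnb, grn1 and grn2 in each of the 20 telencephalon libraries by group, with the group mean and SD as a bar to the right (n = 5). In old fish the wildtype and mutant points of grna and grnb do not overlap, and those of grn1 and grn2 do.

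Of the genes tested, 244 were higher and 315 were lower in old mutant than in old wildtype telencephali, which together are 559 genes or 2.81% of those tested. Over all tested genes the median log2 fold change was -0.01. More than 4-fold differences were found in 61 of the higher and 90 of the lower genes. The groups did not overlap for 237 of the 559 called genes, 94 higher and 143 lower, and for 6.91% of all tested genes, 3.61% higher and 3.3% lower. Old mutants 3, 4 and 5 carried more of the calls than mutants 1 and 2. Of the 244 higher genes, 220 to 230 lay above every wildtype value in each of mutants 3, 4 and 5, compared with 157 in mutant 1 and 142 in mutant 2. Of all tested genes, 24.7% to 27.0% lay above every wildtype value in mutants 3, 4 and 5, and 21.6% and 21.5% in mutants 1 and 2. For 82 called genes, mutants 3, 4 and 5 were all beyond the wildtype range and mutants 1 and 2 both within it, and for 2 genes the reverse held. A call over 5 mutants is reached more easily when 3 of them shift than when 2 do. The selection of called genes therefore fixed part of this contrast, and no share over all tested genes was computed, so no conclusion is drawn from it. Without mutants 1 and 2 the count rose to 737 higher and 674 lower, and without mutants 3, 4 and 5 it was 122 higher and 260 lower. These fits kept 3 and 2 mutants, so their counts are not directly comparable. With the 10 old libraries fitted alone, 97 were higher and 155 lower. The balance of directions depended on the tool: on the recovered reads, edgeR called 335 higher and 276 lower and DESeq2 425 higher and 328 lower.

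Transcripts of 3 gene models that lie side by side in the RefSeq gene order were present in old wildtype and nearly absent from old mutant telencephali. The gene nlrc11 belongs to the NLR family, intracellular sensors with a leucine-rich repeat that are greatly expanded in fish. It was at 1271, 1168, 999, 886 and 1252 in wildtype and 0.82, 0, 0, 0 and 2.92 in mutant telencephali (log2 fold change -9.54, SE 0.43, adjusted p = 3.97e-11). The adjacent models si:ch211-181d7.2, at 575 to 799 against 0 to 8.77, and si:ch211-181d7.1, at 40.3 to 73.3 against 0 to 4.87, followed the same pattern (log2 fold changes -7.22 and -4.18). Reads may be split among near-identical family members. By the criterion of under 10 normalised counts in every library of one group and at least 50 in every library of the other, nlrc11 and si:ch211-181d7.2 were the 2 genes lost in old mutants, and no gene was gained. In young telencephali nlrc11 was as low in wildtype (0 to 3.79) as in mutants (2.12 to 4.35), so that the old wildtype animals were the group that stood apart. Of the 10 other tested NLR genes none was called by limma, and 2 had an unadjusted p of at most 0.05. One of them, nlrp1, was called higher by edgeR, by DESeq2 and after quantile normalisation. The family's median log2 fold change was -0.14.

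Genes with small p among the lower ones were steady across all 5 mutants. The hydroxylysine kinase gene hykk.2 was at 387, 288, 305, 351 and 313 in wildtype and 64.0, 67.5, 77.4, 65.3 and 68.2 in mutant telencephali (log2 fold change -2.24, SE 0.14, adjusted p = 1.02e-08). Dynamin 2 pinches endocytic vesicles off the membrane, and its gene dnm2a was at 549.6, 397, 480.1, 464 and 513 against 179.7, 208, 130.1, 149 and 128 (log2 fold change -1.61, SE 0.13, adjusted p = 4.44e-07). The endothelial adhesion molecule gene pecam1a was at 254, 233, 289, 429 and 270.0 against 60.7, 68.6, 67.7, 89.6 and 82.9 (log2 fold change -1.96, SE 0.16, adjusted p = 4.44e-07). For these 3 genes every mutant value lay below the wildtype range. The uncharacterised models si:ch211-133d24.25 (log2 fold change -5.13), loc101882772 (-4.81) and si:ch73-314g15.3 (-1.39) were also among the 8 with the smallest p, and the first 2 were at no more than 2.11 in any mutant. These genes kept their call in all 10 fits that left out 1 library.

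Other large decreases differed in how many mutants carried them. The model si:ch211-233m11.1 was at 252, 20.6, 394, 349 and 34.6 in wildtype and 14.8, 2.11, 0, 0 and 0 in mutant telencephali (log2 fold change -5.81), so the wildtype libraries themselves differed by more than 10-fold. For si:ch211-5k11.8, at 490.1 to 1495 against 25.5 to 164, si:ch211-266c8.1, at 713 to 931 against 20.2 to 71.2, ENSDARG00000095595, at 96.2 to 276 against 0.82 to 70.32, and si:dkey-205h13.2, at 56.3 to 196 against 0 to 43.9, the groups did not overlap. By contrast, si:ch211-209l18.4 was at 624, 598, 2.64, 0.837 and 1.95 in mutants 1 to 5 against 948 to 2089.6 in wildtype, and the secreted metalloprotease gene ADAMTS7 at 146, 282, 2.64, 0.837 and 6.82 against 116 to 292. In both genes mutants 3, 4 and 5 were close to 0 and mutants 1 and 2 were not. Their calls depended on single libraries: si:ch211-209l18.4 was called in 5 of the 10 fits with 1 library left out, with a highest adjusted p of 0.0734 without old mutant 5, and ADAMTS7 was called in 3 of the 10 fits with 1 library left out, with a highest adjusted p of 0.0737 without old mutant 3. Osteocrin, a secreted peptide that binds the natriuretic peptide clearance receptor, is encoded by ostn, which was at 515, 754, 279, 61.5 and 215 against 139, 47.5, 16.7, 6.70 and 9.75 (log2 fold change -3.43, adjusted p = 0.00889). The last of these, si:dkey-71b5.3 was at 0, 0, 104, 107 and 99.2 in wildtype and at 0 in all mutants, and was called in 7 of the 10 fits with 1 library left out, with a highest adjusted p of 0.0694 without old wildtype 3.

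Among the higher genes, those with the smallest p moved in all 5 mutants. A gene model without a symbol (ENSDARG00000091087) was at 0 in all wildtype libraries and at 19.7, 8.44, 12.3, 9.21 and 24.4 in the mutants, which are few reads. The translation initiation factor subunit gene eif3eb was at 279, 205, 227, 182 and 234 in wildtype and 605, 379, 612, 684 and 690.2 in mutant telencephali (log2 fold change 1.38, SE 0.14, adjusted p = 3.99e-06). MXD3, whose product dimerises with Max and opposes Myc, was at 135, 178, 190.1, 169.9 and 135 against 402, 331, 306, 311 and 341 (log2 fold change 1.07, SE 0.12, adjusted p = 1.54e-05). Sorbitol dehydrogenase, which turns sorbitol into fructose, is encoded by sord, at 161, 170.1, 121, 190.4 and 182 against 362, 419, 318, 337 and 327 (log2 fold change 1.101, SE 0.13, adjusted p = 2.65e-05). The bZIP repressor gene nfil3-2 was at 195, 532, 564, 563 and 532 against 1625, 1322, 1874, 2429 and 2689 (log2 fold change 2.11, SE 0.25, adjusted p = 5.99e-05). Here too the groups did not overlap. The models si:dkey-66i24.9 (log2 fold change 2.01) and zgc:112148 (2.01) completed the 8 genes, together with the finTRIM gene ftr56. The finTRIM family is a fish-specific branch of the TRIM ubiquitin ligases. ftr56 was at 1.14, 1.97, 0.805, 2.56 and 6.92 against 153, 19.0, 37.8, 31.8 and 35.1 (log2 fold change 3.75, SE 0.46, adjusted p = 5.99e-05), but reads of this multigene family may be split between near-identical copies.

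**Figure D3:**
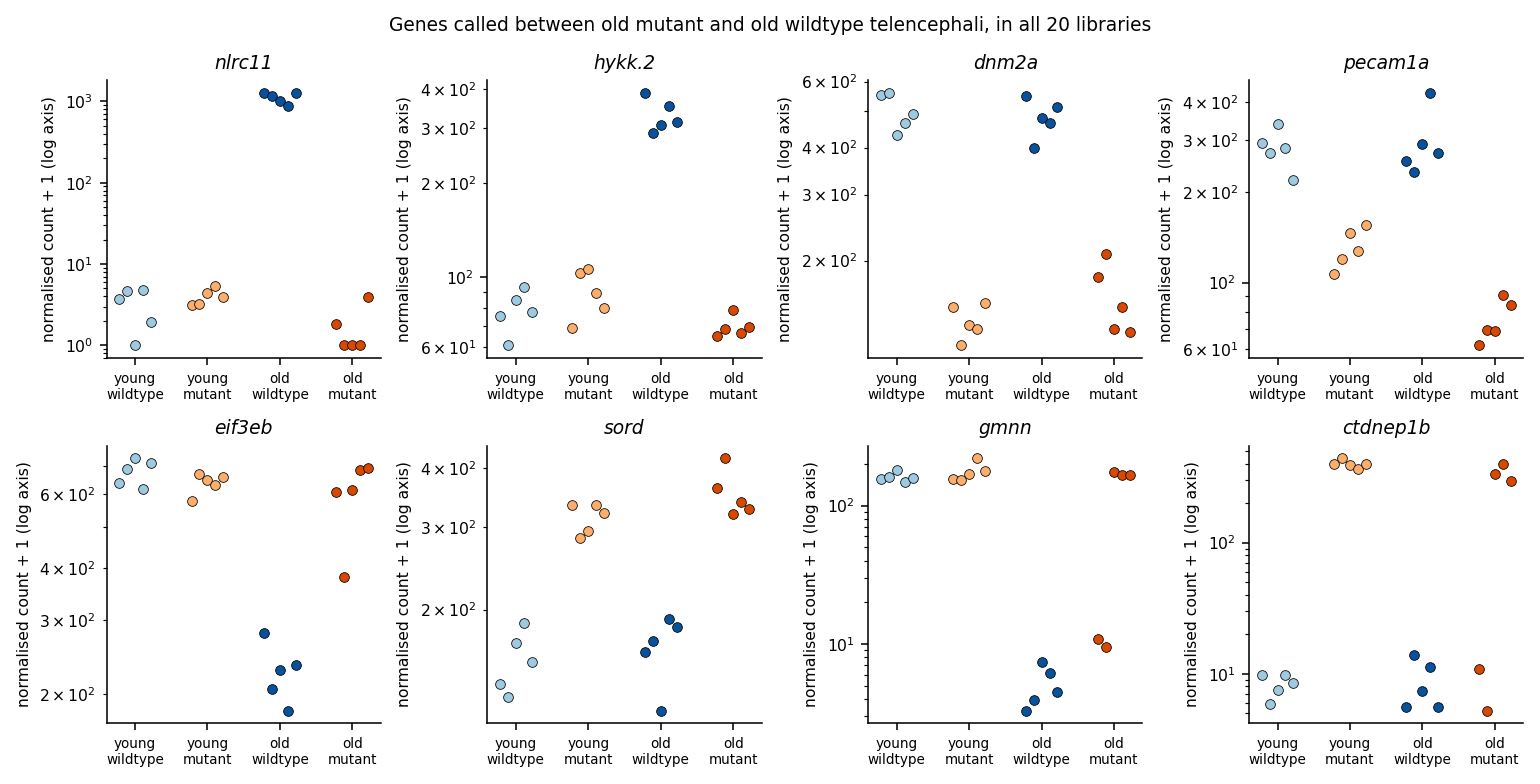
Normalised counts plus 1 on a log axis for 8 called genes in the 20 telencephalon libraries, by group (one point a library). Old wildtype stands apart from the other groups for nlrc11, hykk.2 and eif3eb, mutants of both ages stand apart for dnm2a, pecam1a and sord, and in gmnn and ctdnep1b old mutants 1 and 2 lie near old wildtype while 3, 4 and 5 do not.

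The largest increases were mostly carried by mutants 3, 4 and 5. Geminin, which keeps replication origins from being licensed again, is encoded by gmnn, at 2.29, 2.95, 6.44, 5.12 and 3.46 in wildtype and 9.85, 8.44, 174, 167 and 165 in mutant telencephali (log2 fold change 3.50, SE 0.68, adjusted p = 0.00288). Mutants 1 and 2 were just above the wildtype range, and young telencephali of both genotypes were at 148 to 179 and 153 to 219. The nuclear envelope phosphatase gene ctdnep1b was at 4.58, 12.8, 6.44, 10.2 and 4.61 against 9.85, 4.22, 333, 397 and 295 (log2 fold change 3.18), with mutants 1 and 2 at the wildtype level. The oligosaccharyltransferase gene stt3b was at 238, 220.2, 259, 245 and 318 against 235, 242, 5824, 6339.7 and 2869 (log2 fold change 2.49), with the same division. The non-coding RNA gene ENSDARG00000094560 reached 0.82, 8.44, 294, 197 and 244 in the mutants against at most 8.01 in wildtype (log2 fold change 3.34), and si:dkey-182g1.3 and si:dkey-23c22.9 were likewise near 0 in mutants 1 and 2 (log2 fold changes 3.92 and 2.79). The adhesion receptor gene adgrg3 was at 34.5, 5.28, 78.2, 58.6 and 116 against 2.31 to 8.05 (log2 fold change 2.91) and zgc:171490 at 23.0, 28.5, 199.5, 248 and 295 against 1.14 to 48.2 (log2 fold change 3.06). Apart from gmnn, these calls were lost when single libraries were left out. The highest adjusted p was 0.0816 for ctdnep1b, 0.111 for ENSDARG00000094560, 0.0948 for si:dkey-182g1.3, 0.124 for si:dkey-23c22.9 and 0.0779 for adgrg3, each without old mutant 5. It was 0.0927 for stt3b without old mutant 3 and 0.0651 for zgc:171490 without old wildtype 4. In young fish, wildtype and then mutant, stt3b was at 2497 to 4520 and 3070 to 6300. Likewise ENSDARG00000094560 was at 158 to 299 and 117 to 352, and zgc:171490 at 133 to 213 and 158 to 223. The range of si:dkey-23c22.9 was 69.6 to 142 and 49.7 to 101. In these genes old wildtype and old mutants 1 and 2 lay below every young library. By contrast ctdnep1b was at 4.87 to 8.85 and 364 to 438, and si:dkey-182g1.3 at 0 to 1.26 and 100 to 158.

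For another group of large increases, 1 or 2 wildtype libraries reached mutant-like levels. The PI3-kinase catalytic subunit gene pik3ca was at 18.3, 19.7, 248, 279 and 19.6 in wildtype and 259, 465, 429, 805 and 409 in mutant telencephali, so that wildtype 3 and 4 lay close to mutant 1 (log2 fold change 2.98, SE 0.65, adjusted p = 0.00678). The model si:ch73-299h12.8 was at 42.4, 0, 0, 1.71 and 0 against 40.2, 28.5, 60.7, 61.1 and 98.5 (log2 fold change 4.38) and ENSDARG00000086739 at 2.29, 2.95, 0.805, 40.1 and 25.4 against 59.1, 40.1, 54.5, 57.8 and 49.7 (log2 fold change 2.79). These 3 genes kept their call whichever library was left out. The following 3 genes were chosen after their values were seen. The branched-chain aminotransferase gene bcat1 was at 287, 301, 292, 165 and 288 against 1530.2, 2366, 413, 1464 and 1815 (log2 fold change 2.33, adjusted p = 0.000318), which brought 4 mutants towards the 2021 to 2286 of young wildtype. The gene of the chromatin insulator protein CTCF was at 1775, 3591, 3773, 3647 and 3991 against 3240.1, 369, 366, 291 and 278 (log2 fold change -2.65, adjusted p = 0.00405), with mutant 1 at the wildtype level. The actin-regulating gene cap1 was at 2272, 2562, 2383, 1362 and 1203 against 149, 1306, 233, 279.6 and 199.8 (log2 fold change -2.62, adjusted p = 0.00108), with mutant 2 as the exception.

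Of the gene lists examined, cholesterol synthesis held the most genes called lower in old mutants. The brain makes its own cholesterol, from acetyl-CoA through mevalonate, squalene and lanosterol, and glial cells make most of it. Of 24 tested genes of the pathway and its control, 9 were lower and none was higher, against 1.58% lower over all tested genes. The log2 fold change was negative in all 24, with a median of -0.93 beside -0.01 over all genes, and 15 had an adjusted p of at most 0.05. The list's summed level was 20532 to 45049 in wildtype and 11680.5 to 28606 in mutant telencephali.

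At the mevalonate stage, the HMG-CoA synthase gene hmgcs1 was at 1605, 5664, 7002, 5363 and 6479 in wildtype and 2754, 1852, 841, 1182 and 606 in mutant telencephali (log2 fold change -1.90, SE 0.49, adjusted p = 0.0171). Wildtype 1 lay within the mutant range, and the other wildtype libraries lay above every mutant. The mevalonate diphosphate decarboxylase gene mvda was lower (-1.27), and fdps and pmvk, of the same stage, had adjusted p of 0.0172 and 0.0204 at less than a 2-fold difference (-0.95 and -0.82). At squalene, the squalene synthase gene fdft1 was lower (-1.19), and the epoxidase gene sqlea was at 571, 1983, 2048, 1534 and 2059 against 929.6, 562, 106, 126 and 13.6 (log2 fold change -3.22, SE 0.92, adjusted p = 0.0265). Its lowest value, in mutant 5, was far below every other. Lanosterol synthase (lss, -2.11, adjusted p = 0.0664) was not called. Of the enzymes that turn lanosterol into cholesterol, cyp51 (-1.55), msmo1 (-1.71), nsdhl (-1.58), ebp (-1.15) and dhcr7 were lower. The last of them, dhcr7, catalyses the final step and was at 797, 930.0, 1014, 899.7 and 1004 against 687, 809, 89.7, 165 and 95.5 (log2 fold change -1.94, SE 0.52, adjusted p = 0.0193), with mutants 1 and 2 close to wildtype and mutants 3, 4 and 5 far below. Among the regulators, the transcription factor gene srebf2 was at -0.35 (adjusted p = 0.102), its retention factor insig1 at -0.90 (0.0294) and the LDL receptor gene ldlra at -0.55 (0.235), none of them called. Of the genes in this paragraph, hmgcs1, fdps, dhcr7 and pmvk had the smallest p of the list and the others were chosen after their values were seen.

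The count of lower cholesterol genes depended on single libraries more than any other list described here. It was 17 without old wildtype 1, which was itself low in this pathway, 15 without mutant 1 and 11 without mutant 2. It fell to 0 without mutant 5, 1 without mutant 3, 3 without mutant 4, and 2 without any one of wildtype 2 to 5. In the fit without mutant 5, 17 genes still had an unadjusted p of at most 0.05. Without mutants 3, 4 and 5 no gene of the list was called by limma and none had an unadjusted p of at most 0.05, although the median stayed negative at -0.44. Relative to the wildtype mean, the median of the 24 genes was -0.94 in wildtype 1 and -0.28, -0.65, -1.14, -1.20 and -1.57 in mutants 1 to 5. The libraries with the lowest cholesterol medians, wildtype 1 and mutants 3, 4 and 5, were those with the high immediate early genes, and the part of these in the result was not tested. In young fish 3 genes of the list were lower in mutants, among them dhcr7 (-2.54, adjusted p = 0.0016), whereas hmgcs1 was at 0.04.

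**Figure D4:**
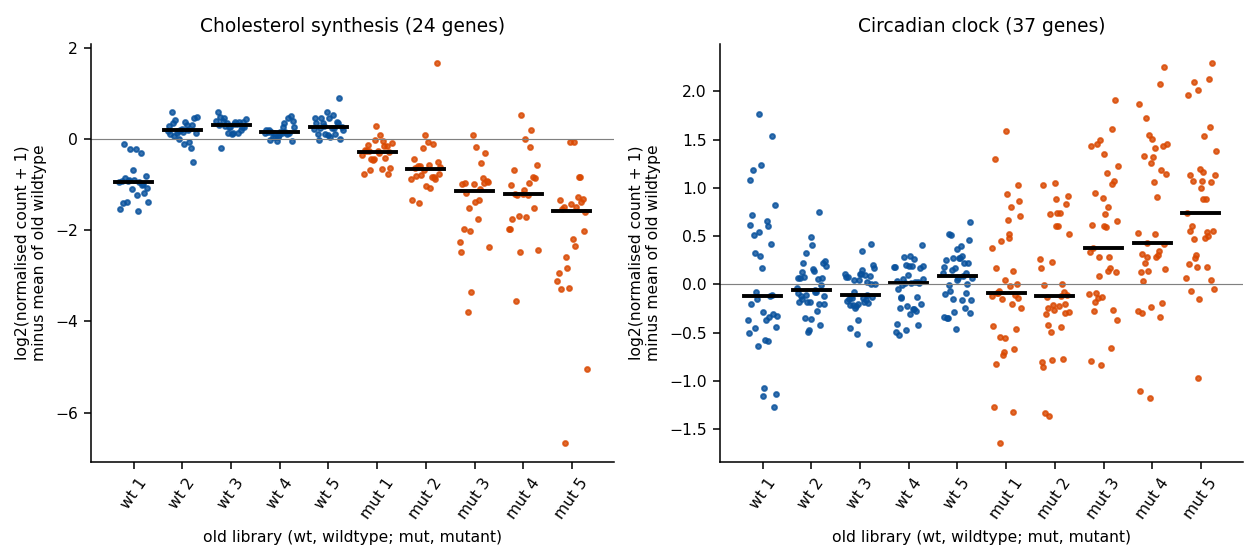
Log2(normalised count + 1) of each gene minus its old wildtype mean, for 24 cholesterol synthesis genes and 37 circadian clock genes in the 10 old libraries, each point a gene and each black line the library's median. Cholesterol medians run from -0.28 to -1.57 in the mutants and lie at -0.94 in wildtype 1, and clock medians are at 0.38 to 0.74 in mutants 3, 4 and 5.

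Among genes of the circadian clock, all calls were in the higher direction. The clock is a feedback loop in which Clock and Bmal proteins drive their own repressors, and its transcripts change strongly with the time of day. Of 37 tested genes, 3 were higher and none lower, against 1.23% higher over all tested genes. The median log2 fold change was 0.44. A further 7 were higher at an adjusted p of at most 0.05 with less than a 2-fold difference, and 1 was lower. The 4 genes with the smallest p did not overlap between the groups but missed the fold threshold. The Bmal gene arntl1a was at 958, 1362, 1538, 1719 and 1764 in wildtype and 2496, 2402, 2506, 2687 and 2647 in mutant telencephali (log2 fold change 0.83, adjusted p = 0.000201). Its partner clocka was at 72.1, 117, 95.0, 70.8 and 92.3 against 169, 164, 134, 220.2 and 185 (0.96, adjusted p = 0.000774), the nuclear receptor gene rorca at 574 to 920.2 against 1116 to 1724 (0.83) and the cryptochrome gene cry4 at 273 to 491 against 583 to 751 (0.65). The 3 called genes were nfil3-5, at 678, 1912, 2185, 1845 and 2257 against 3343, 2911, 6175, 7786 and 8033 (log2 fold change 1.66, adjusted p = 0.00227), rorcb, at 218, 682, 524, 554 and 626 against 1458, 1009.8, 1240.3, 1384 and 974 (1.30, adjusted p = 0.00288), and nr1d4a, a relative of the Rev-erb repressors, at 396, 484, 464, 584 and 673 against 715, 779.7, 1141, 1358 and 1484 (1.04, adjusted p = 0.00705). Wildtype 1 was the lowest library for each. nr1d4a was called in 7 of the 10 fits with 1 library left out, and without mutants 3, 4 and 5 the list's median was -0.11. The sources used here do not state at what time of day each fish was dissected, and it cannot be told apart from the groups.

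Of the 49 lists, 19 held no call. In these 19 lists, of 607 genes tested by limma, 119 had an unadjusted p of at most 0.05, against 30.1% of all tested genes, edgeR called 5 and DESeq2 called 8. Over all tested genes 2.81% were called, so that lists of this size may hold no call or 1 call at the background share. Among genes of inflammation and immunity, interferon response genes had no call among 40 tested, complement genes none among 18, and apoptosis genes none among 31. Of 23 tested chemokines, which attract immune cells, 3 were higher, against 1.23% over all tested genes, and none lower, with a median of 0.50. They were cxcl32b.1, at 1.14, 9.83, 5.64, 2.56 and 8.08 in wildtype and 17.2, 7.39, 44.0, 33.5 and 34.1 in mutant telencephali (log2 fold change 2.14, adjusted p = 0.00682), ccl19a.1, at 16.0, 31.5, 21.7, 41.8 and 40.4 against 37.7, 79.1, 122, 111 and 57.5 (1.36, adjusted p = 0.0228), and ccl38.6, at 10.3, 27.5, 10.5, 6.83 and 10.4 against 23.0, 11.6, 64.2, 39.4 and 48.7 (1.38, adjusted p = 0.0311). In all of them mutants 3 and 4 were above every wildtype value. The count fell to 1 without wildtype 3, mutant 3 or mutant 4, and to 0 with the 10 old libraries fitted alone. The most abundant of the 4 chemokines with the smallest p, ccl44, had a log2 fold change of 0.49 (adjusted p = 0.0188). Of 12 tested pro-inflammatory cytokine and mediator genes, 1 was lower: ptgs2a, which encodes the prostaglandin-making cyclooxygenase 2, was at 199, 386, 437, 364 and 375 against 100.1, 174, 113, 52.7 and 77.0 (log2 fold change -1.82, SE 0.31, adjusted p = 0.000992). It was lower in every mutant. Over all tested genes 1.58% were lower. The list as a whole did not follow ptgs2a: 8 of the 12 genes had a positive log2 fold change, with a median of 0.24. Of these, 1 was higher at an adjusted p of at most 0.05 with less than a 2-fold difference.

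Antigen presentation genes moved 1 each way. Over all tested genes 1.23% were higher and 1.58% lower, which is the background for the counts in this paragraph. Of 20 tested MHC genes, the class II gene mhc2d4b was higher, at 139.7, 77.7, 99.1, 87.9 and 93.5 against 231, 157, 296, 234 and 223 (log2 fold change 1.19, adjusted p = 0.000428), and the class I gene mhc1zca was lower, at 18.3, 14.7, 14.5, 22.2 and 18.5 against 7.38, 12.7, 0, 0.837 and 0 (-2.66, adjusted p = 0.0124). MHC genes differ between haplotypes, and how reads of these genes were assigned among alleles and copies was not tested. Besides ftr56, 1 of 91 tested TRIM genes was higher, ftr36 (1.69, adjusted p = 0.0475), at no more than 16.6 normalised counts and called in 3 of the 10 fits with 1 library left out. Of 26 tested JAK and STAT signalling genes, 1 was lower and 1 was higher. STAT3 was lower, at 687, 655, 603, 774 and 898 against 669.5, 406, 305, 196 and 245 (log2 fold change -1.11, adjusted p = 0.00826). CISH, a cytokine-induced inhibitor, was higher, at 118, 93.4, 108, 83.7 and 122 against 122, 97.1, 228, 309.8 and 512 (1.02, adjusted p = 0.0353). Mutant 1 lay within the wildtype range for both genes, and mutant 2 for CISH. The CISH call was lost without mutant 5 (adjusted p = 0.0957). DESeq2 called 2 genes of this list higher and none lower, so its calls did not include STAT3 as lower. Without old wildtype 1 and old mutant 4, limma called no gene of this list. In NF-kB and TNF signalling, the adaptor gene TRAF2 was at 192, 100.3, 66.9, 58.0 and 72.7 against 149, 189.9, 185, 175 and 199 (1.00, adjusted p = 0.0063), just past the fold threshold. Mutant 5 alone lay above every wildtype value, TRAF2 was called in 4 of the 10 fits with 1 library left out, and neither edgeR nor quantile normalisation gave a call in its list of 28 genes.

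Of 35 tested microglial markers, 1 was called, grna itself, against 2.81% called over all tested genes, and the median was 0.10. Their summed level was 21026 to 36597 in wildtype and 22175 to 25006 in mutant telencephali. The most abundant, apoeb (-0.50, adjusted p = 0.116), cd74a (0.14, 0.49) and lgals3bp.1 (-0.47, 0.467), were not called. Of 21 tested lymphocyte markers, 2 were higher and 1 was lower. The B cell receptor gene cd79b was at 4.58, 0.983, 0, 1.71 and 2.31 against 4.92, 16.9, 11.4, 6.70 and 14.6 (log2 fold change 2.13, adjusted p = 0.00506) and il2rb, a receptor subunit of T and natural killer cells, at 11.4, 9.83, 18.5, 5.98 and 20.8 against 20.5, 14.8, 51.0, 48.6 and 55.6 (1.39, adjusted p = 0.0278, called in 5 of the 10 fits with 1 library left out). Both rested on few reads. The recombinase gene rag2 was lower, at 139, 189.7, 189, 226 and 169.6 against 55.8, 59.1, 66.8, 47.7 and 140.4 (-1.39, adjusted p = 0.0273, called in 4 of the 10). tox2, which is also expressed in neurons, was at 1463 to 1629 against 1928 to 3055 (0.63, adjusted p = 0.000241) and missed the fold threshold. Neutrophil markers had no call among 12.

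Pathways named in work on progranulin and ageing were examined next. Of 72 tested lysosomal genes, 1 was higher, against 1.23% over all tested genes, with a median of 0.01 and a summed level of 147147 to 156974 in wildtype and 146580.0 to 159664 in mutant telencephali. The gene called, LAMP1, encodes an abundant lysosomal membrane protein, but this copy was low, at 32.1, 48.2, 218, 32.4 and 36.9 against 99.3, 308, 84.4, 141 and 123 (log2 fold change 1.34, adjusted p = 0.035), and was called in 3 of the 10 fits with 1 library left out, with a highest adjusted p of 0.0939 without old wildtype 4. TPP1, a lysosomal peptidase, was at 164 to 254 against 178 to 253 (0.13, adjusted p = 0.512). The cytokine gene il4 was at 2.56 to 11.4 against 2.51 to 11.5 (log2 fold change 0.31, adjusted p = 0.709) and its effector stat6 at 41.5 to 64.9 against 31.7 to 68.2 (-0.10, adjusted p = 0.804). None of the 15 tested genes of that axis was called. The telomerase gene tert was at 11.95 to 17.2 against 8.77 to 22.9 (0.24, adjusted p = 0.605). Of 21 telomere maintenance genes, stn1, which encodes a subunit of the complex that fills in telomere ends, was higher, at 85.9, 60.0, 62.0, 55.5 and 72.7 against 106, 65.4, 329.6, 358 and 367 (log2 fold change 1.56, adjusted p = 0.00797), with mutants 3, 4 and 5 far above all other libraries.

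Cell cycle genes gave 2 calls, against 2.81% called over all tested genes. Of 23 tested growth arrest and G1 genes 1 was higher, and of 45 S phase and mitosis genes 1 was lower. The cyclin-dependent kinase inhibitor p21, a brake on entry into S phase, is encoded by cdkn1a, which was at 26.3, 14.7, 18.5, 21.3 and 19.6 in wildtype and 79.6, 45.4, 73.0, 122 and 46.8 in mutant telencephali (log2 fold change 1.74, SE 0.29, adjusted p = 0.00101). All mutants were above all wildtype libraries, and the call held whichever library was left out. The cyclin E gene ccne1 was lower, at 17.2, 8.85, 13.7, 8.54 and 9.23 against 0.82, 6.33, 6.15, 7.54 and 2.92 (-1.27, adjusted p = 0.0231), on few reads, whereas its relative ccne2 was at 0.64 (adjusted p = 0.0105). The microtubule regulator gene stmn1a, abundant in newborn neurons, was at 254, 226, 260.2, 229.6 and 198 against 165, 148, 149, 92.1 and 112 (-0.83, adjusted p = 0.00289), below 2-fold but without overlap, and the spindle gene TPX2 was at -0.71 (adjusted p = 0.0635). Of the 45 tested S phase and mitosis genes, 34 had a negative log2 fold change, with a median of -0.33. That direction turned without mutants 3, 4 and 5, where the median was 0.18. None of 39 neurogenesis and Notch genes was called.

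In the lists of extracellular matrix and vessel wall genes, all calls by limma were in the lower direction. Over all tested genes 1.58% were lower. Of 46 tested collagens, 3 were lower: COL6A2, at 28.6, 66.8, 76.5, 66.6 and 45.0 against 13.1, 19.0, 15.8, 9.21 and 13.6 (log2 fold change -1.88, adjusted p = 0.00165), COL5A1, at 264, 514, 618, 519 and 512 against 171, 328, 233, 209 and 168 (-1.12, adjusted p = 0.0018), and col24a1 (-1.49, called in 3 of the 10 fits with 1 library left out). The first 2 belong also to the leptomeningeal fibroblast list, of whose 27 tested genes 4 were lower and none higher, with a median of -0.56. The other 2 were the transporter gene SLC16A12 (-1.36, adjusted p = 0.0141) and the homeobox gene alx4a (-1.13, adjusted p = 0.0244, called in 6 of the 10). Ependymin, the most abundant product of these cells, did not follow: epd was at 116377 to 217410.0 in wildtype and 72885 to 323587 in mutant telencephali (0.01). Of 16 tested pericyte and smooth muscle markers, the contractile genes cnn1b (-1.61, 6 of 10 fits) and tagln (-1.26, 4 of 10 fits) were lower. The median was -0.33, with 11 genes negative and 5 positive. The 3 most abundant were not called: NOTCH3 was at 0.05, abcc9 at -0.18 and rgs5b at 0.84 (adjusted p = 0.165). DESeq2 called 1 gene of this list higher and 2 lower, and limma called 0 lower in the 10 old libraries alone. Among 28 endothelial markers, pecam1a was the one called. The median was -0.02, with 14 genes negative and 14 positive. Of the 3 most abundant, mfsd2aa was at -0.65 (adjusted p = 0.0877), slc2a1a at -0.36 (0.0657) and the receptor gene kdrl at 0.02. Cell adhesion genes had no call among 62. The erythroid heme synthesis gene alas2 was at 181, 513, 849, 580.5 and 422 against 134, 111, 67.7, 122 and 45.8 (log2 fold change -2.34, SE 0.43, adjusted p = 0.00217), lower in every mutant, while the median of 11 erythroid genes was -0.57 and the globin gene hbaa1 was at -0.12.

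Calls by limma among stress and cilium genes were in the lower direction, against 1.58% lower over all tested genes. Of 28 tested heat shock genes, 24 had a negative log2 fold change, 3 were lower and none was higher, with a median of -0.28. They were a copy of HSPA8, the constitutive chaperone (2313 to 3468 against 848 to 2259.8, -1.01), the collagen chaperone gene serpinh1b, whose wildtype 1 value of 270 stood far above the other wildtype libraries at 10.8 to 34.6 (-2.28), and the small heat shock gene hspb6, at 133, 227, 253, 265 and 303 against 72.2, 79.1, 160.0, 67.8 and 159 (-1.18). In the 10 fits with 1 library left out they were called 6, 5 and 3 times. The asparagine synthetase gene asns, a target of the amino acid stress response, was lower at 371, 897, 1017, 971 and 1116 against 370.0, 418, 298, 361 and 293 (log2 fold change -1.24, SE 0.21, adjusted p = 0.00108), the only call among 30 genes of the unfolded protein response list. Of 43 tested motile cilium genes, 3 were lower, with a median of -0.41: mns1, at 71.0, 114, 114, 102 and 149 against 59.9, 63.3, 39.6, 41.9 and 52.6 (-1.07, adjusted p = 0.00279), capsla (-1.17) and the microtubule gene tekt1 (-1.03). The last 2 were called in 4 and 4 of those fits. Of the cilium list, edgeR called 1 gene lower, and DESeq2 called 1 higher and 1 lower. By limma 1 was lower in the 10 old libraries alone and 0 without wildtype 5. Motile cilia line the brain ventricle, where they move the cerebrospinal fluid.

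Markers of neurons and glia are set against 1.23% higher and 1.58% lower over all tested genes. Of 23 neuron markers 1 was lower, the sodium pump gene atp1a3b, at 8767, 22492, 25075, 28214 and 22235 against 16225, 17506, 5454, 4676 and 2569.7 (log2 fold change -1.48, adjusted p = 0.0362), low in wildtype 1 and in mutants 3, 4 and 5, and called in 3 of the 10 fits with 1 library left out, with a highest adjusted p of 0.098 without old mutant 5. Its close relative atp1a3a was at 0.13 and SNAP25 at -0.01. Synaptic release genes (31 tested) and transmitter genes (43) had no call. Of 29 ependymoglia markers, the water channel gene aqp4 was lower (-1.69, 3 of 10 fits), at no more than 24.2 normalised counts. In this list 22 genes had a negative log2 fold change, with a median of -0.14 (-0.0045 without mutants 3, 4 and 5). An adjusted p of at most 0.05 was reached by 5 genes, all lower. Of the 3 most abundant, atp1a1b was at -0.70 (adjusted p = 0.0251), glula at -0.20 (0.17) and slc1a2b at -0.17 (0.399). Myelin markers had no call among 18 by limma, with a median of -0.23, while edgeR and DESeq2 each called 1 lower. Among the 3 most abundant of them, GPR37 was at 2102 to 2974 against 3202 to 3745 (0.50, adjusted p = 0.000867). It was below 2-fold but without overlap. OLIG2, which specifies oligodendrocytes, was higher, at 736, 339, 354, 364 and 265 against 826, 744, 773, 747 and 1059 (log2 fold change 1.09, SE 0.18, adjusted p = 0.000992), with every mutant above every wildtype, and it was the only one of 13 precursor markers called. It was called in 8 of the 10 fits with 1 library left out. Of the 13 precursor markers, 8 had a negative log2 fold change, with a median of -0.15, and edgeR called none of them. Of 36 neuropeptide genes, nmbb, which encodes neuromedin B, was higher, at 24.0, 29.5, 20.9, 36.7 and 21.9 against 368, 194, 66.8, 62.0 and 81.9 (log2 fold change 2.16, adjusted p = 0.00643), mostly in mutants 1 and 2. Of these 36 genes, 26 had a negative log2 fold change, with a median of -0.23. NRP1, a semaphorin receptor on the habenula list, was at 622, 452, 420.5, 347 and 531 against 775, 893, 1259, 769 and 1159 (1.03, adjusted p = 0.0018, 6 of 10 fits). Of the 15 tested habenula genes, 10 had a negative log2 fold change, with a median of -0.49. DESeq2 called 1 of these 15 higher and 3 lower. The pituitary hormone gene fshb was lower at 30.7 to 34.4 against 4.40 to 28.5 (-1.33, 3 of 10 fits). No olfactory, muscle or skin marker was called.

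Genes beside the targeted loci were examined by their order in the RefSeq gene table. Of the tested genes, 75.5% could be placed, and 74.8% of the called genes, so a count of called neighbours is void and is not given. Named neighbours are reported as single genes. Within the 25 placed genes on either side of grnb, rbbp8, which encodes the DNA end resection factor CtIP, was lower, at 82.4, 175, 96.7, 87.1 and 186 against 19.7, 21.1, 24.6, 31.8 and 28.3 (log2 fold change -2.21, SE 0.23, adjusted p = 7.84e-06), with every mutant below every wildtype. It was lower in young mutants too (-1.43, adjusted p = 0.000135). Around grna, the apolipoprotein L gene apol (-1.56, 2 of 10 fits), the cyclin gene ccndx (-1.04, 7 of 10 fits) and zbed4l1 (-2.33, 1 of 10 fits) were lower, and the exchange factor gene cyth4a was higher (1.52, 9 of 10 fits).

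The genotype effect in old fish was set beside that in young fish, which was measured in other animals. In the young telencephalon 987 genes (4.97%) were higher and 760 (3.82%) lower in mutants, together 8.79% of those tested. Of the 559 genes called in old fish, 148 were called in the same direction in young fish, 57 higher and 91 lower, and 22 in the opposite direction. The 148 genes are 26.5% of the old calls and 8.47% of the young calls. Their number fell to 41 without old mutants 3, 4 and 5. The log2 fold change in young fish was positive for 67.2% of the 244 higher genes, against 50.1% of all tested genes, and negative for 67.9% of the 315 lower genes, against 49.9%.

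Mutants of both ages differed from wildtype in dnm2a, at 431 to 559 in young wildtype and 118 to 153 in young mutants (log2 fold change -1.86, adjusted p = 4.41e-09), and the difference between the ages was 0.25 (adjusted p = 0.394). The same held for sord, at 129 to 186 against 283 to 333 (1.01, adjusted p = 9.41e-06; difference 0.09, adjusted p = 0.79), and for si:ch73-314g15.3 (-1.57, adjusted p = 4.71e-08). In pecam1a, which was lower at both ages (-1.10 in young fish), the difference between the ages was -0.87 (adjusted p = 0.0162), past the p threshold but under 2-fold, whereas it missed the p threshold in dnm2a, sord and si:ch73-314g15.3.

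Other genes differed by genotype at one age. Over all genes, the effect of genotype differed by age for 1200, or 6.04% of those tested, and 186 of the 559 old calls were among them. The old difference is part of that test, and the 559 genes were called for it in the same libraries. No conclusion is therefore drawn from the share of old calls. In nlrc11 the difference was -10.06 (adjusted p = 1.39e-09), in hykk.2 -2.43 (1.15e-07), in eif3eb 1.46 (5.32e-05), in bcat1 3.03 (0.000406) and in cdkn1a 2.01 (0.0034). For hykk.2, young wildtype at 59.6 to 92.3 and young mutants at 67.9 to 105 were near the old mutant level, and for eif3eb both young groups, at 616 to 728 and 575 to 669, were near it as well. The genotype effect on clocka turned with age, with a log2 fold change of -1.56 in young fish (adjusted p = 7.54e-07) and 0.96 in old fish (difference 2.52, adjusted p = 3.61e-07). Young wildtype had 284 to 412 and young mutants 106 to 141 normalised counts. Of the 37 tested clock genes, 8 were higher and 2 lower in young mutants, against 4.97% and 3.82% of all tested genes. Their median log2 fold change was 0.50 in young and 0.44 in old fish, so the list as a whole did not turn. Among the 559 old calls, 15 (2.68%) had all old wildtype libraries outside and all old mutant libraries inside the range of the 10 young libraries, and 5 (0.894%) had the reverse. Over all tested genes these shares were 0.438% and 0.247%. Both patterns require that the old groups do not overlap. The 559 genes were called for a difference between these same libraries, so no conclusion is drawn from their higher shares. The old mutant mean was nearer to the young wildtype mean than the old wildtype mean was for 324 of the 559, or 58.0%, compared with 53.3% of all tested genes. By direction it was 64.8% of the higher and 52.7% of the lower genes. The same limit applies, and no conclusion is drawn from these shares either.

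**Figure D5:**
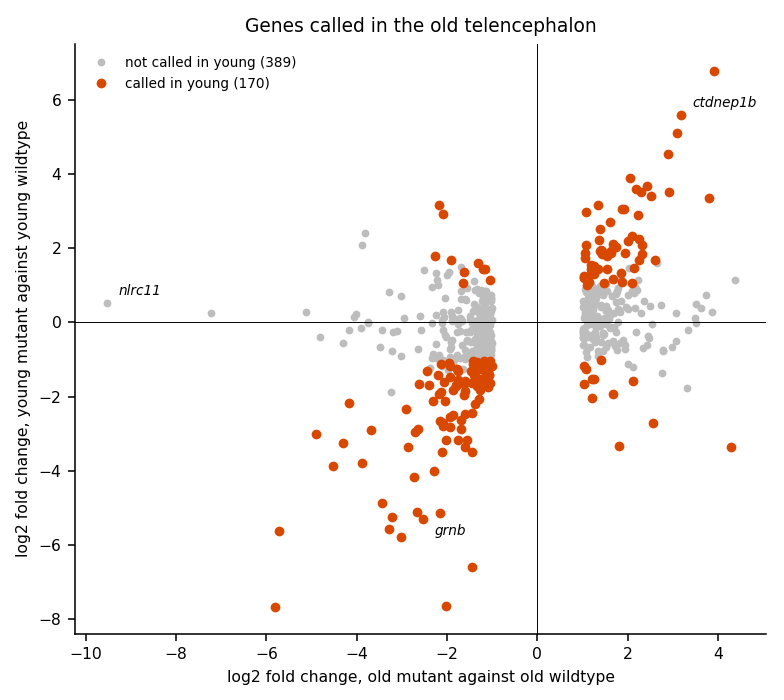
Log2 fold change of mutant against wildtype in the old telencephalon (x axis) and in the young telencephalon (y axis) for the 559 genes called in old fish, orange where the gene was also called in young fish (170 genes) and grey where it was not (389). The 148 genes called in the same direction at both ages lie in the lower left and upper right, and nlrc11 lies at -9.54 in old and 0.52 in young fish.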

How the data were processed

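Per the labels and the methods, the authors isolated total RNA from whole telencephali, amplified it with a SMART-Seq kit, aligned reads with STAR to GRCz10 and normalised with DESeq2 (given as release 3.9). The deposited signal values are gene counts that the authors divided by size factors. Whole reads were recovered for 100% of the values (tolerance 1e-06), and their sum gave the depth. The sorted-cell tables of the series were not used.

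Values were tested as log2(normalised count + 1) with limma 3.58.1 (trend and robust, R 4.3.3), 4 groups of 5 libraries in 1 model, with a minimum mean of 5 and Benjamini-Hochberg adjustment. The thresholds were an adjusted p of at most 0.05 and a log2 fold change of at least 1. Adding 1 understates the change of low genes. P-values measure the spread between these samples only. Members and gene lists were chosen with earlier results of these data known. The procedure was tested on simulated data.

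Genes named are the granulins, il4, stat6, tert and TPP1, the 12 largest called changes per direction with a symbol and a mean of at least 50 in 1 group, the 8 with the smallest p per direction, the 4 or fewer list members of smallest p, on/off genes, the 3 most abundant markers of each cell type and called neighbours of grna and grnb. Other called members of a list, and cholesterol genes beyond the first 4, were named after their values were seen. Some results are not reported here. Symbols in capitals follow the source table. Neighbours were read from RefSeq gene order (GRCz12tu, another build).

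Alternatives were pseudocounts of 0.25 and 4, no filter, a filter at 50, quantile normalisation, equal totals, count models on the recovered reads (DESeq2 1.42.0, edgeR 4.0.16), only the 10 old libraries, a replicate block, array weights, no fold threshold and libraries left out. Figures were drawn with matplotlib 3.10.9.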

Additional observations from a re-analysis of the deposited data

Results flagged for a closer look

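In groups of 5 libraries, a library was singled out when its gap to the nearest other library was over 0.71 of the group's range on the log2(normalised count + 1) scale (Dixon's 95% limit). Chance singles out about 1 in 20 groups. Many of the 118 genes named above were picked by their p or values in these same libraries. The counts below are therefore not set against that share. The values given are the normalised counts of that library. Old wildtype 1 was apart from the other wildtype libraries for 22 of the genes named above, 11 of them on the cholesterol synthesis list of 24: si:ch73-299h12.8 (42.4), si:dkey-66i24.9 (19.5), nfil3-2 (195), hmgcs1 (1605), fdps (1330.5), sqlea (571), fdft1 (147), msmo1 (859.9), mvda (211), cyp51 (2161), ebp (218), nsdhl (77.9), lss (270.2), insig1 (1793), nfil3-5 (678), rorcb (218), ptgs2a (199), COL5A1 (264), asns (371), atp1a3b (8767), ccndx (109) and CTCF (1775). The other libraries apart from their group were old mutant 1 for loc101882772 (1.64) and CTCF (3240.1), old mutant 2 for eif3eb (379) and cap1 (1306), old mutant 3 for ENSDARG00000095595 (70.32), si:ch211-266c8.1 (20.2) and bcat1 (413), old mutant 5 for grnb (4.87), old wildtype 2 for zbed4l1 (17.7), old wildtype 3 for LAMP1 (218), old wildtype 4 for bcat1 (165) and old wildtype 5 for grna (2153).

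The genotype effect differed by age, in a test of the difference itself over all genes (adjusted p of at most 0.05 in limma and at least 1 on the log2 scale), for genes named above. The log2 fold change was more positive in old than in young fish for grnb (2.78), ftr56 (3.00), gmnn (3.39), pik3ca (3.63), ENSDARG00000086739 (3.53), eif3eb (1.46), zgc:112148 (1.27), clocka (2.52), rorcb (1.42), ftr36 (3.63), CISH (1.42), TRAF2 (1.23), LAMP1 (2.24), cdkn1a (2.01), cd79b (3.32), bcat1 (3.03) and ENSDARG00000091087 (3.59). It was more negative in old fish for nlrc11 (-10.06), si:ch211-181d7.2 (-7.47), si:ch211-181d7.1 (-3.97), si:ch211-266c8.1 (-4.20), si:dkey-205h13.2 (-6.23), hykk.2 (-2.43), si:ch211-133d24.25 (-5.42), loc101882772 (-4.41), insig1 (-1.75), stmn1a (-1.08), cnn1b (-2.98), hspb6 (-1.63), asns (-1.16), rag2 (-2.26), aqp4 (-3.17), ccndx (-1.15) and zbed4l1 (-3.29).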

How the results depend on the processing

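The calls of grna and grnb held under every alternative, with log2 fold changes of -1.72 to -1.26 and -2.68 to -2.18 when single libraries were left out. Of 97 called genes named above, 47 were called whichever library was left out and 50 were lost at least once. With the 10 old libraries fitted alone, 52 of the 97 kept their call and 45 did not, and with edgeR 76 kept it and 21 did not. Against 559 genes, 328 were called with a filter at 50 (139 higher, 189 lower), 252 in the 10 old libraries alone (97 and 155), 1129 with array weights (581 and 548) and 2959 with no fold threshold (1530 and 1429). DESeq2 called 425 higher. Leaving out 1 library gave 364 to 791 genes, 147 to 382 higher and 213 to 415 lower. The following removals were chosen after seeing the data, and they kept unlike numbers of mutants. Without old mutants 1 and 2, 1411 genes were called (737 and 674), and without old mutants 3, 4 and 5, 122 were higher. In the latter fit si:dkey-182g1.3 (-0.39), ENSDARG00000094560 (-0.18), ctdnep1b (-0.12), si:dkey-23c22.9 (-0.30) and stt3b (-0.091) changed sign, as their mutants with high values were removed.

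Genes called in the same direction in young and old fish numbered 148, and 82 with a filter at 50, 277 with array weights, 773 with no fold threshold, 370 without old mutants 1 and 2, 41 without old mutants 3, 4 and 5, and 83 to 206 with 1 library left out. The genotype effect differed by age in 1200 genes, 739 with a filter at 50, 2880 with no fold threshold and 1047 to 1546 with 1 library left out. Cholesterol genes lower, 9 in the report, numbered 4 with edgeR, 0 in the old libraries alone (19 at an unadjusted p of at most 0.05), 17 with array weights, 15 without old wildtype 1 and old mutant 4, 15 with no fold threshold, 19 without old mutants 1 and 2, 0 without old mutants 3, 4 and 5, and 0 to 17 with 1 library left out. The cause was not tested.

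Replicate numbers did not pair the samples: same-numbered wildtype and mutant libraries correlated at -0.24 to 0.13 in their deviations from the group means. A replicate block gave 502 calls (212 higher and 290 lower), 129 genes shared with young fish, 1189 differing by age and 2 lower cholesterol genes.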

Other observations

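No transcript of the mitochondrial genome was called, by limma, edgeR or DESeq2. All 12 genes had a negative log2 fold change, with a median of -0.32 beside -0.01 over all genes, an unadjusted p of at most 0.05 in all 12 and an adjusted p of at most 0.05 in 10 by limma, none of them reaching 2-fold. Relative to the wildtype mean, the library medians were -0.13 to 0.11 in wildtype and -0.03, -0.25, -0.27, -0.57 and -0.45 in mutants 1 to 5. The median was -0.14 without mutants 3, 4 and 5 and stayed at -0.33 to -0.29 under equal totals, quantile normalisation, edgeR and DESeq2. Of 104 nuclear genes of the respiratory chain, 80 had a negative log2 fold change, with a median of -0.07 and no call (24 at an unadjusted p of at most 0.05, none with edgeR and 1 with DESeq2), and ribosomal protein genes, 78 tested, had a median of -0.06.

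Immediate early genes divided the mutants. Over 27 genes no call was made by limma and none had an unadjusted p of at most 0.05, while edgeR called 1 and DESeq2 called 2. Without mutants 1 and 2 the list's median was 1.47 and 9 genes were higher, and without mutants 3, 4 and 5 it was -0.81 and 1 gene was lower. Over all tested genes, 737 were higher in the first of these fits and 260 were lower in the second.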
